A study of Mus musculus with 3 samples.

Results

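The T cell identity and receptor signalling genes are a set of 34 genes grouped by what they encode: the CD3 chains of the T cell receptor, the coreceptors, other surface receptors of T cells, and the kinases, phosphatases, adaptors and transcription factors of the same cells. A member was taken wherever an array probe's RefSeq transcript belongs to it, which found all 34 among the 22908 genes with a named probe. They were measured with 54 probes, and 17 of them have more than 1. Expression was read on 1-colour arrays in 3 splenic tumours, each from a male mouse aged 10 weeks and untreated. Of these, 1 carried the genotype p53+/−, here the p53 tumour, and 2 carried LSD1 × p53+/−, numbered 2 and 3 in the labels and here called tumour L2 and tumour L3. All 3 therefore share the p53+/− label, and no tumour-free spleen is among them. The state of the p53 alleles in the tumours was not measured. What the LSD1 element is, and which promoter or cell type drives it, is not given in the sources used here. Pooling of animals is not mentioned. The material is a tumour by its tissue label and splenic cells by its growth protocol, and each value is an average over whatever cells the sample held.

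On the surface of a T cell the antigen-binding receptor chains sit with CD3 delta, epsilon, gamma and the zeta chain, which carry the signal inwards. The kinase Lck, held by the CD4 or CD8 coreceptor, phosphorylates those chains, Zap70 docks on them, and Zap70 in turn phosphorylates the adaptors Lat and Slp76 (encoded by Lcp2), from which calcium, Ras and protein kinase C pathways start. Tcf7, Lef1 and Bcl11b are transcription factors that set up and keep T cell identity in the thymus. In spleen these genes mark the T zones of the white pulp. Several are not limited to T cells: NK cells use Cd247, Zap70, Lck and Sh2d1a, B cells use Ets1, Ptpn22 and Cd2, and a subset of dendritic cells carries CD8 alpha.

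Values are signals divided by the array's 75th percentile, so a signal of 1 equals that percentile, and differences are on the log2 scale of these signals. A level is "well above background" where the scanner software says so. A gene had to pass that mark on 1 array or more to be tested, which 15240 did, and all 34 members are among them. On every array 33 members were above background, and Trat1 was so in the p53 tumour and tumour L2. The arrays were alike in quality, with between 51.5% and 55.6% of spots above background and no saturated spot. On the 300 probes printed 10 times, the median coefficient of variation between spots of 1 array was between 2.67% and 2.86%. That spread is technical and says nothing of animals: each tumour is 1 array, and the number of arrays limits every comparison below. Tumour L2 was hybridised on slide 2, and the p53 tumour and tumour L3 on slide 1, so for tumour L2 the slide and the tumour cannot be told apart.

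Most T cell genes were highest in tumour L2 and lowest in tumour L3, with the p53 tumour between them. That order held for 25 of the 34 members. Among these, Ubash3a (0.0098) and Sit1 (0.0233) lay next to the p53 tumour in tumour L2, and their sign there turned in the authors' value table (-0.20 and -0.19). How many of all genes had that order was not counted. By direction at any size, 25 members were higher in tumour L2 than in the p53 tumour, as were 8072 of all 15240 genes tested. In tumour L3 only 1 member was higher, against 8855 of all genes. Against the p53 tumour, 14 members (41.2%) were at least 2-fold higher in tumour L2, where 11.7% of all genes tested were, and 5 (14.7%) were at least 2-fold lower, where 11.5% were. In tumour L3, 24 members (70.6%) were at least 2-fold lower, against 11.5% of all genes, and none was 2-fold higher, against 15.2%. A total of 12 members (35.3%) were 2-fold higher in the former and 2-fold lower in the latter, against 0.886% of all genes, and none had the opposite pattern, against 0.669%. Both of these comparisons use the same p53 array. The median difference over the members was 0.82 in tumour L2 and -1.36 in tumour L3, beside 0.05 and 0.16 over all genes. These shares have 1 array a side and carry no test. In bulk RNA, fewer T cells and less T cell RNA per cell cannot be told apart.

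**Figure D1:**
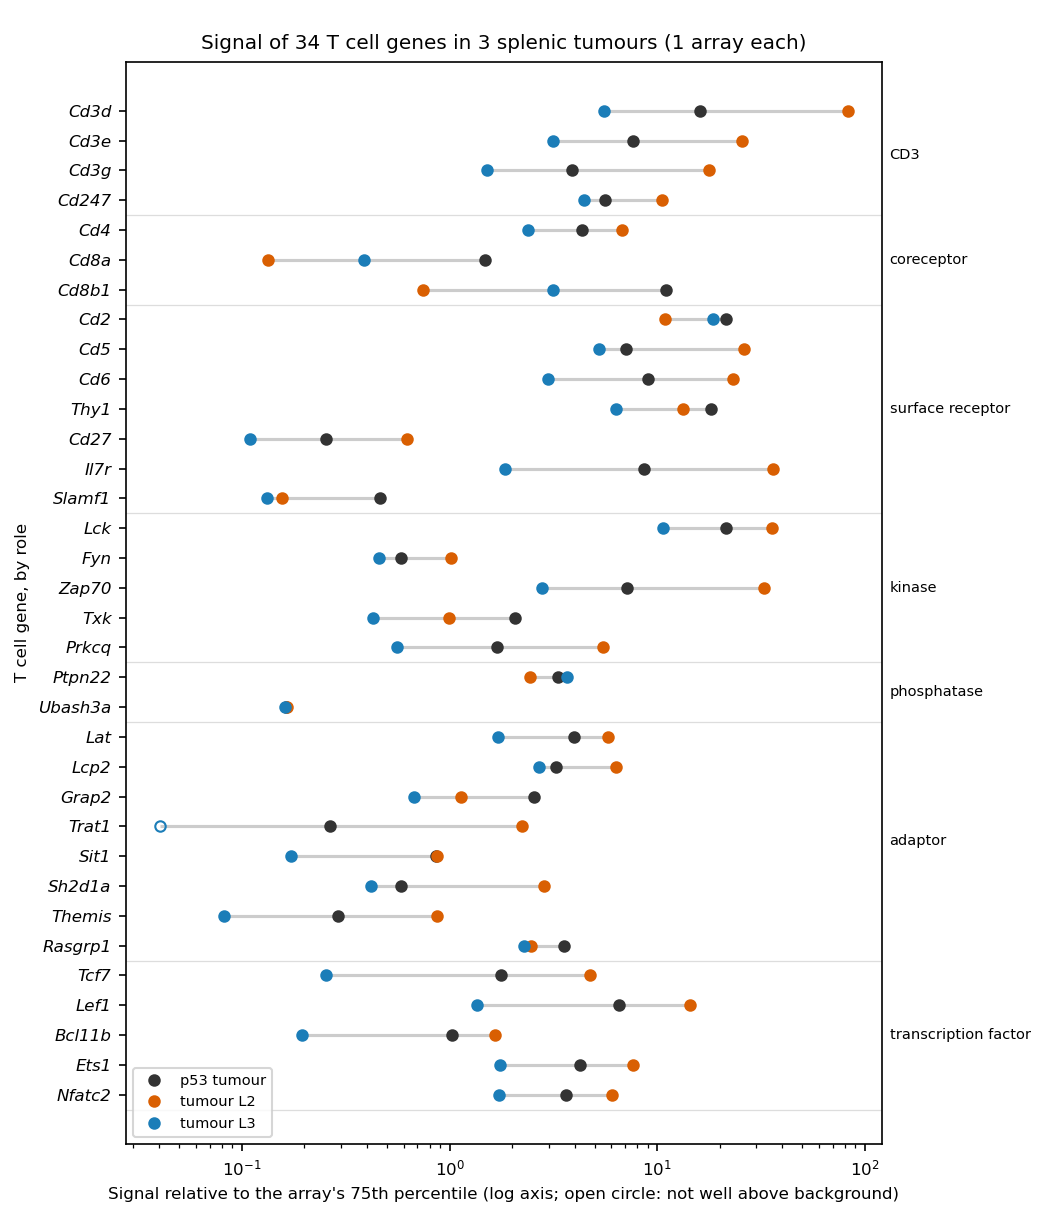
Signal of each of the 34 T cell genes relative to the array's 75th percentile (x axis, log scale), by gene and role (y axis), with 1 point per tumour and an open circle where the probe was not well above background. For 25 genes the orange point of tumour L2 lies furthest right and the blue point of tumour L3 furthest left, and Cd8a and Cd8b1 are among the exceptions.

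The LSD1 tumours, which carry the same genotype label, were also set against each other. Whether their numbers name mice of 1 line or separate lines is not given in the sources used here, so their difference may not be one between replicates. Tumour L2 exceeded tumour L3 by at least 2-fold in 26 members (76.5%), against 11.1% of all genes, and was exceeded in 2 (5.88%), Cd8a and Cd8b1, against 14.0%. The median of that difference was 1.96 over the members and -0.10 over all genes.

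The genotype comparison averages these opposed tumours. limma called 0 of 34 members and 0 of 15240 genes, which is 0%, at an adjusted p of 0.05 (Benjamini-Hochberg over all genes), with member adjusted p-values between 0.967 and 1. At an unadjusted p of 0.05, limma gave 2 members, Slamf1 and Cd8a, both lower in LSD1 × p53+/−, against 2.58% of all genes in that direction. With 1 residual degree of freedom, the fit takes the lone p53 tumour to vary like the LSD1 tumours. The median genotype difference over members was -0.13 (0.13 over all genes). Without tumour L3 it was 0.82 and without tumour L2 it was -1.36, so its sign rests on which tumour is counted. By size, no member was at least 2-fold higher in both LSD1 tumours (3.48% of all genes), and 5 members (14.7%) were 2-fold lower in both (5.38% of all genes): Cd8a, Cd8b1, Slamf1, Txk and Grap2.

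**Figure D2:**
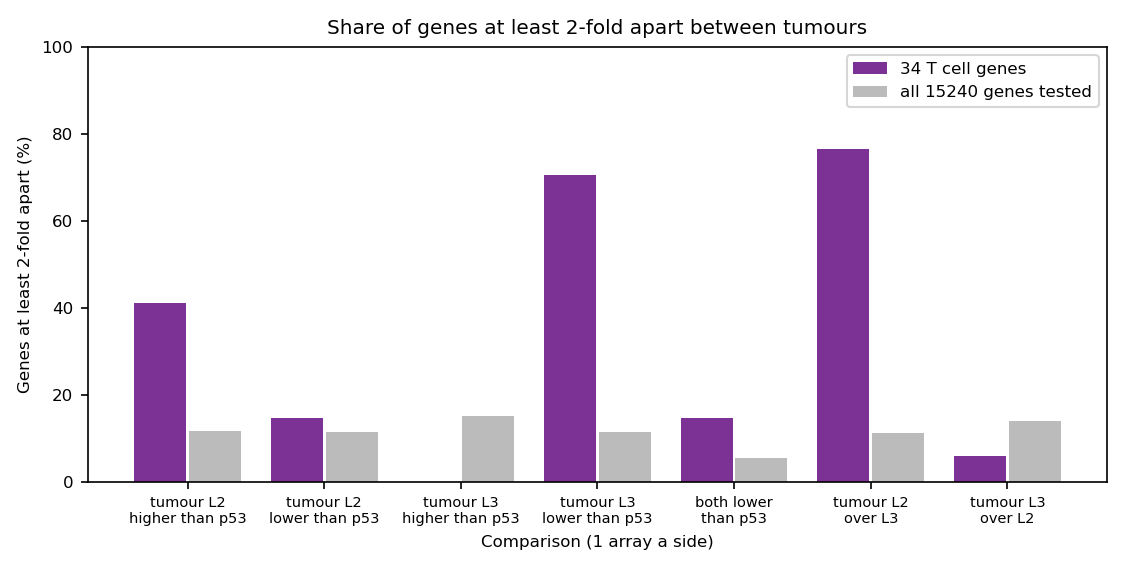
Percent of genes at least 2-fold apart (y axis, from 0) in 7 comparisons between tumours (x axis), for the 34 T cell genes (purple) and all genes tested (grey), with 1 array a side and no error. The purple bar stands furthest above the grey one for tumour L3 lower than the p53 tumour (70.6% beside 11.5%) and for tumour L2 over tumour L3 (76.5% beside 11.1%).

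The genes of the CD3 delta, epsilon and gamma chains, which lie next to each other in the genome, differed between tumours by similar amounts. Cd3d, the delta chain, had a signal of 16.0 in the p53 tumour, 82.5 in tumour L2 and 5.51 in tumour L3. It was thus 5.15-fold higher in tumour L2 and 2.91-fold lower in tumour L3, and 15.0-fold apart between the LSD1 tumours. Cd3e, the epsilon chain, stood at 7.67, 25.5 and 3.13 in the same order, which is 3.33-fold higher and 2.45-fold lower than the p53 tumour. Cd3g, the gamma chain, stood at 3.90, 17.8 and 1.52, or 4.56-fold higher and 2.57-fold lower. All 3 had their highest signal in tumour L2 and their lowest in tumour L3. Cd247, which encodes the zeta chain and is also used by Fc receptors of NK cells, had the same order with a narrower spread: 5.60, 10.6 and 4.45. That is a difference of 0.92 log2 units in tumour L2 and -0.33 in tumour L3. In tumour L3 its other probes differed by -1.53 and 1.26. The median of the probe levels on each array gave -1.10 there, which sets different probes against each other. None of the 4 passed limma's test of the genotype (adjusted p between 0.983 and 0.992).

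The coreceptors were split. Cd4, the coreceptor for class II MHC, followed CD3 in direction with 4.36, 6.73 and 2.38, differences of 0.63 and -0.87 log2 units. The latter was past 2-fold by the median of its probes (-1.48). That value rests on a second, dim probe (difference -2.10) that was not well above background in tumour L3. Cd8a, the alpha chain of the coreceptor for class I MHC, stood at 1.48 in the p53 tumour, 0.134 in tumour L2 and 0.388 in tumour L3. Cd8b1, the beta chain, which is more restricted to T cells than the alpha chain, stood at 11.0, 0.743 and 3.14. Both CD8 genes were highest in the p53 tumour and lowest in tumour L2, where CD3 was highest. Cd8a was 11.1-fold lower in tumour L2 and 3.83-fold lower in tumour L3, and Cd8b1 14.8-fold and 3.50-fold lower. The genotype difference was -2.71 ± 0.88 (SE) for Cd8a and -2.85 ± 1.1 (SE) for Cd8b1 with limma (adjusted p = 0.967 for each). The second Cd8a probe gave 0.540, 0.245 and 0.161, differences of -1.14 and -1.75, so that by this probe tumour L3 was the lowest. The Cd8a difference in tumour L2 was -2.75 with normexp and -2.31 by the median of its probes.

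**Figure D3:**
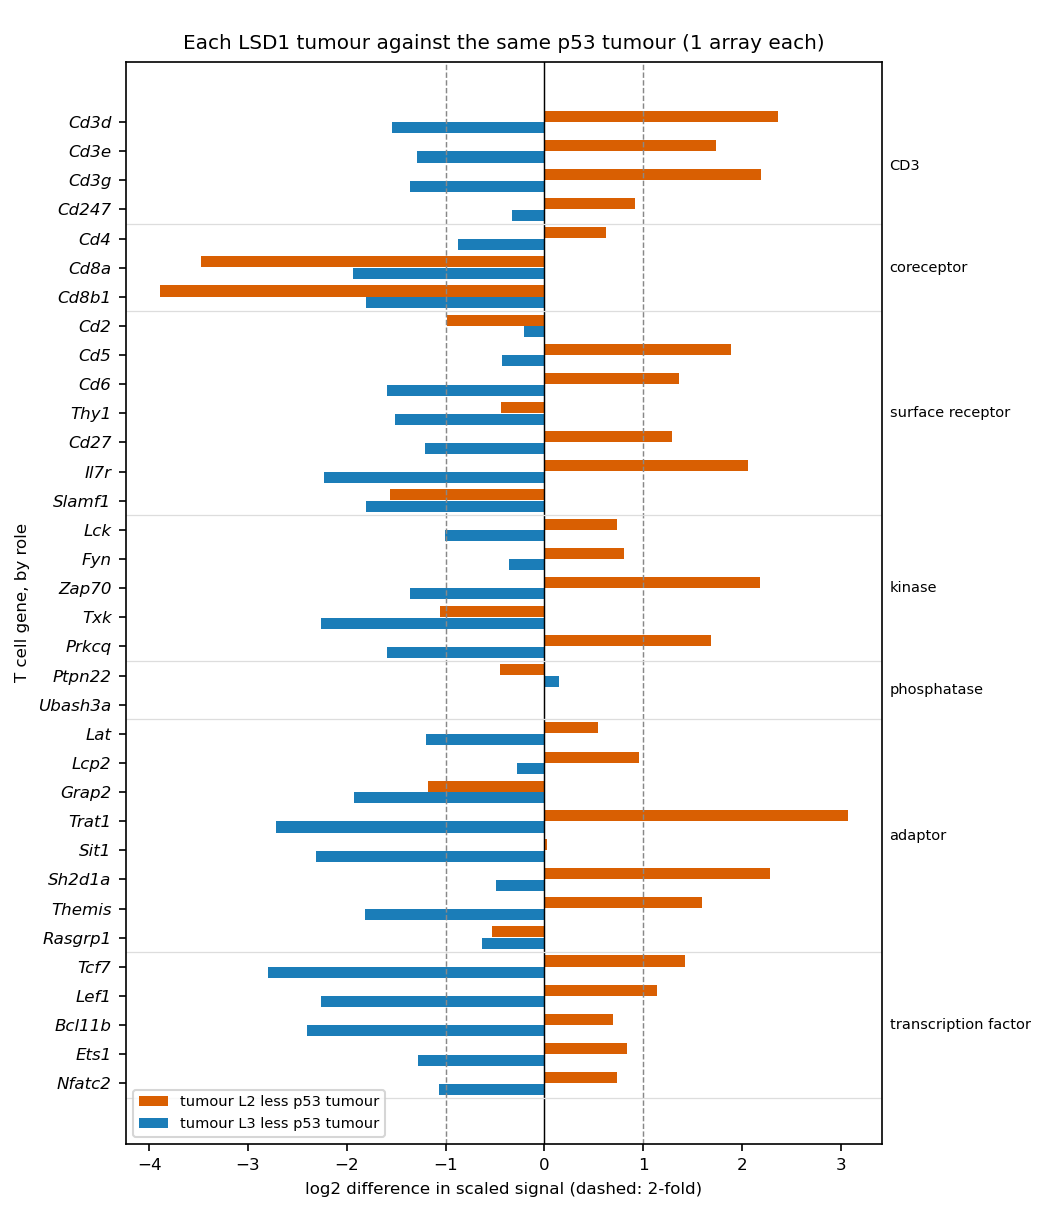
Log2 difference in scaled signal from the p53 tumour (x axis, dashed lines at 2-fold) for each T cell gene (y axis, by role) in tumour L2 (orange) and tumour L3 (blue), with 1 array each and the p53 array shared by both. Blue bars point left for all but Ptpn22, while orange bars point right for 25 genes and reach furthest left for Cd8b1 (-3.89) and Cd8a (-3.47).

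The sequences around 6 start sites are given because these genes carry the patterns above and below: the 3 adjacent CD3 genes differed alike, Cd8a was lower in both LSD1 tumours, and Il7r and Bcl11b lay far apart between them. Each window runs from 250 bases before to 50 bases after the start, 5′ to 3′ on the gene's strand, from RefSeq with the build GRCm38.p6. Cd3g lies at chr9:44980382-44980681 on the minus strand, Cd3d at chr9:44981536-44981835 on the plus strand and Cd3e at chr9:45009562-45009861 on the minus strand. Cd3g and Cd3d thus start close together and are transcribed away from each other. Cd8a lies at chr6:71373177-71373476 (plus), Il7r at chr15:9529827-9530126 (minus) and Bcl11b at chr12:108003365-108003664 (minus). Capitals mark matches, on either strand, to letters that factors of lymphocytes are known to favour: TGTGGT for RUNX factors, CTTTGA for Tcf7 and Lef1, AGATAA for GATA factors, CAGNTG for E proteins and GGAAGT for ETS factors. No letter belongs to more than 1 match.
Cd3g: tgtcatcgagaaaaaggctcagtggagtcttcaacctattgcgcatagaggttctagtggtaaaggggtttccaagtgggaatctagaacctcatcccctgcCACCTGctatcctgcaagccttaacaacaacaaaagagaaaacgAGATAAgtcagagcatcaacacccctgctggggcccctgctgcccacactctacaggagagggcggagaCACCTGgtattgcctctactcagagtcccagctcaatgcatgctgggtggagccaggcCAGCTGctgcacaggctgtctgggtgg
Cd3d: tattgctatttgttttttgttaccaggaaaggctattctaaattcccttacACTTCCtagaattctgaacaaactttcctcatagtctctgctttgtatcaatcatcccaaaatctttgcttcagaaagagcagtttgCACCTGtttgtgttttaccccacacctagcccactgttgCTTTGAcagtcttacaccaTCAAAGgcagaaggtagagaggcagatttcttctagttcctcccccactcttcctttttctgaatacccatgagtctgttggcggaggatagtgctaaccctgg
Cd3e: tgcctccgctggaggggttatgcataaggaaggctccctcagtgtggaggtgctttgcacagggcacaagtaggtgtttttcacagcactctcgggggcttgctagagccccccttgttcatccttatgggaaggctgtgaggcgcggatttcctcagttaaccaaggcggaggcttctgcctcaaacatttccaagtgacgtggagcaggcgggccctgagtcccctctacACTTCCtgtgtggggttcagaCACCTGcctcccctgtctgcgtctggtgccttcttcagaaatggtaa
Cd8a: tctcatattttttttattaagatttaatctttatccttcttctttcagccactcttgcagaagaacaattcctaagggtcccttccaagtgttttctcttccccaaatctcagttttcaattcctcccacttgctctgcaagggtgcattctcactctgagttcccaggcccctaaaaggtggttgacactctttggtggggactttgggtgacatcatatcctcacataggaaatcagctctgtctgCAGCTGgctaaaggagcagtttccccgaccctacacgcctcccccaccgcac
Il7r: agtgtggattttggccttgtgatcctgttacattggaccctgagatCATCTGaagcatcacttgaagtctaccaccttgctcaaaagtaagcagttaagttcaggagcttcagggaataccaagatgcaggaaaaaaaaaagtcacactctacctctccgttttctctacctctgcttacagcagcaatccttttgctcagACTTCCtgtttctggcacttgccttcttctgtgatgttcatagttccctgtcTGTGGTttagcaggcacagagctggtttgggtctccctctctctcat
Bcl11b: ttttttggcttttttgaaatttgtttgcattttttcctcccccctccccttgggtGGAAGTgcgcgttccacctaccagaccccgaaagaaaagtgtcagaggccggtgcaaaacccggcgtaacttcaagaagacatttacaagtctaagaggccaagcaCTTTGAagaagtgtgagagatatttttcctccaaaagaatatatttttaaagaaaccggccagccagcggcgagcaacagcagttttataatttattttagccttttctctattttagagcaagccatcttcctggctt

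In these windows the letters differed from gene to gene. The Cd3d window held 2 TCF/LEF matches, 1 E box and 1 ETS match, the Cd3g window 3 E boxes and 1 GATA match, and the Cd3e window 1 E box and 1 ETS match. Cd8a had 1 E box only, Il7r 1 match each to RUNX, E box and ETS, and Bcl11b 1 each to TCF/LEF and ETS. RefSeq windows were at hand for 27 of the 34 members, 38 windows in all, and not for Cd4, Cd8b1, Cd2, Cd6, Thy1, Sh2d1a and Ets1. Among the 38, TCF/LEF letters were in 11 (28.9%), ETS letters in 15 (39.5%), E boxes in 26 (68.4%), RUNX letters in 7 (18.4%) and GATA letters in 5 (13.2%). Of all 32851 windows of the same length, 16.0%, 23.8%, 51.4%, 16.8% and 11.2% held them in that order. Some members have several overlapping windows. A match is a run of letters and no binding was measured.

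Among the other surface receptors, Il7r, Cd5, Cd6 and Cd27 had the order of CD3, while Thy1, Cd2 and Slamf1 were highest in the p53 tumour. Il7r, the receptor for the survival cytokine IL-7, had the widest range of these, at 8.63 in the p53 tumour, 36.0 in tumour L2 and 1.84 in tumour L3. It was 4.17-fold higher and 4.68-fold lower than the p53 tumour and 19.5-fold apart between the LSD1 tumours. Cd5, a brake on receptor signalling whose level follows its strength, stood at 7.04, 26.0 and 5.24, so that tumour L2 was 3.70-fold above the p53 tumour and tumour L3 1.34-fold below it. Its relative Cd6, a receptor for ALCAM, stood at 9.0, 23.1 and 2.98, or 2.56-fold higher and 3.02-fold lower. Cd27, a costimulatory receptor of the TNF receptor family, was dim throughout at 0.253, 0.621 and 0.109, with differences of 1.30 and -1.21, the latter -0.68 with normexp and so under 2-fold.

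Thy1, a glycoprotein of T cells and some stromal cells, stood at 18.2 in the p53 tumour, 13.4 in tumour L2 and 6.35 in tumour L3. Cd2, an adhesion receptor of T, NK and mouse B cells, stood at 21.4, 10.9 and 18.5, and is 1 of the 4 members lowest in tumour L2. Slamf1, the founding SLAM family receptor, was lower in both LSD1 tumours, at 0.462, 0.157 and 0.132, that is 2.95-fold and 3.49-fold lower (limma, genotype difference -1.68 ± 0.49 SE, unadjusted p = 0.0366, adjusted p = 0.967). With normexp its difference in tumour L3 was -1.14 in place of -1.80. These 3 receptors therefore did not share the high value that CD3 had in tumour L2.

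Of the 5 kinases, all were lower in tumour L3 than in the p53 tumour, where 8855 of all 15240 genes were higher. In tumour L2, 4 kinases were higher, as were 8072 of all genes. Lck, which starts the cascade, stood at 21.5, 35.6 and 10.7, differences of 0.73 and -1.01, a smaller spread than that of CD3. Zap70, which docks on the phosphorylated chains, stood at 7.18 in the p53 tumour, 32.6 in tumour L2 and 2.79 in tumour L3, 4.54-fold higher and 2.57-fold lower, close to the values of Cd3g. Prkcq, the protein kinase C of the T cell synapse, stood at 1.70, 5.47 and 0.561, or 3.23-fold higher and 3.02-fold lower. Fyn, a relative of Lck found in many cell types, stood at 0.584, 1.02 and 0.456. Txk, a Tec family kinase of T and NK cells, was the exception in tumour L2: at 2.06, 0.990 and 0.429 it was 2.08-fold lower there and 4.81-fold lower in tumour L3. The genes of 2 enzymes that damp the signal differed little between tumours. Ptpn22, a phosphatase acting on Lck and Zap70, stood at 3.33, 2.43 and 3.68, its small excess in tumour L3 (0.14) turning negative in the authors' value table (-0.22) and after quantile normalization (-0.08). Ubash3a stood at 0.163, 0.164 and 0.162, but its other probe, dim in all but the p53 tumour, differed by -0.71 and -1.84, and the direction of the first in each tumour changed with the scaling.

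The adaptor genes hold the member furthest apart between the LSD1 tumours. This was Trat1, a transmembrane adaptor that associates with the receptor. It stood at 0.265 in the p53 tumour, 2.23 in tumour L2 and 0.0405 in tumour L3, where it was not well above background. It was 8.39-fold higher in tumour L2 than in the p53 tumour and at least 3.87-fold lower in tumour L3, and at least 32.5-fold apart between them. Such a bound sets the brighter signal against the lowest level called above background on the dim array. Sh2d1a, which encodes SAP, the adaptor of SLAM receptors, stood at 0.585, 2.84 and 0.418, and its 3 probes gave differences between 1.99 and 2.28 in tumour L2. Themis, needed for thymocyte selection, stood at 0.289, 0.870 and 0.0820, or 3.01-fold higher and 3.52-fold lower. With normexp background correction its difference in tumour L3 shrank from -1.82 to -0.92, under 2-fold, and that of Trat1 from -2.71 to -1.28.

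The scaffold adaptors differed less in tumour L2. Lat stood at 3.95, 5.77 and 1.72 (differences of 0.55 and -1.20), and Lcp2, which is also used by myeloid cells and platelets, at 3.24, 6.31 and 2.68 (0.96 and -0.27). Grap2, which encodes Gads, the link between Lat and Slp76, was lower in both LSD1 tumours instead, at 2.55, 1.13 and 0.670, 2.26-fold and 3.81-fold below the p53 tumour. Lat and Lcp2 were thus higher and Grap2 lower in tumour L2 than in the p53 tumour. Sit1, an inhibitory adaptor, stood at 0.858, 0.872 and 0.173, close to the p53 tumour in tumour L2 and 4.95-fold lower in tumour L3 (a difference of -2.31, and -1.69 with normexp). Rasgrp1, the exchange factor that activates Ras, stood at 3.54, 2.45 and 2.28, lower in both by 1.44-fold and 1.55-fold.

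All 5 transcription factor genes were higher in tumour L2 than in the p53 tumour, as were 8072 of all 15240 genes. All 5 were at least 2-fold lower in tumour L3 (11.5% of all genes). Their median difference was -2.26 in tumour L3, beside -1.33 for the 4 CD3 genes, and 0.84 in tumour L2, beside 1.96. Tcf7, encoding TCF1, stood at 1.77 in the p53 tumour, 4.75 in tumour L2 and 0.254 in tumour L3, 2.69-fold higher and 6.95-fold lower. Its second probe gave differences of 1.41 and -3.32, the latter to a level not well above background. Lef1, its close relative, stood at 6.52, 14.4 and 1.36, or 2.20-fold higher and 4.80-fold lower. Bcl11b, the zinc finger factor of T lineage commitment, stood at 1.02, 1.66 and 0.194, or 1.62-fold higher and 5.27-fold lower. The widely used lymphocyte factor Ets1 stood at 4.25, 7.61 and 1.75. Nfatc2, a calcium-driven factor downstream of the receptor, stood at 3.63, 6.07 and 1.73.

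Setting each gene against the mean of Cd3d, Cd3e and Cd3g on the same array shows which members kept the proportion to CD3 that they had in the p53 tumour. That mean differed from the p53 tumour by 2.10 log2 units in tumour L2 and by -1.40 in tumour L3. In tumour L3, 23 of the other 31 members lay within 1 log2 unit of it, a width chosen after the values were seen, with a median of 0.04 and a range from -1.40 (Tcf7) to 1.54 (Ptpn22). In tumour L2, 11 of 31 did and the other 20 lay further below, with a median of -1.36. The CD3 mean of 2.10 there is itself high among the members (median 0.82, highest 3.07). That most others lay below it follows from the choice of reference. Nearest to CD3 there were Il7r (-0.04), Zap70 (0.09), Sh2d1a (0.18) and Cd5 (-0.21). Furthest below were Cd8b1 (-5.98), Cd8a (-5.57), Slamf1 (-3.66), Grap2 (-3.27), Txk (-3.16) and Cd2 (-3.08). A ratio within an array shows unequal change only, and with 1 array a tumour it was not tested.

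**Figure D4:**
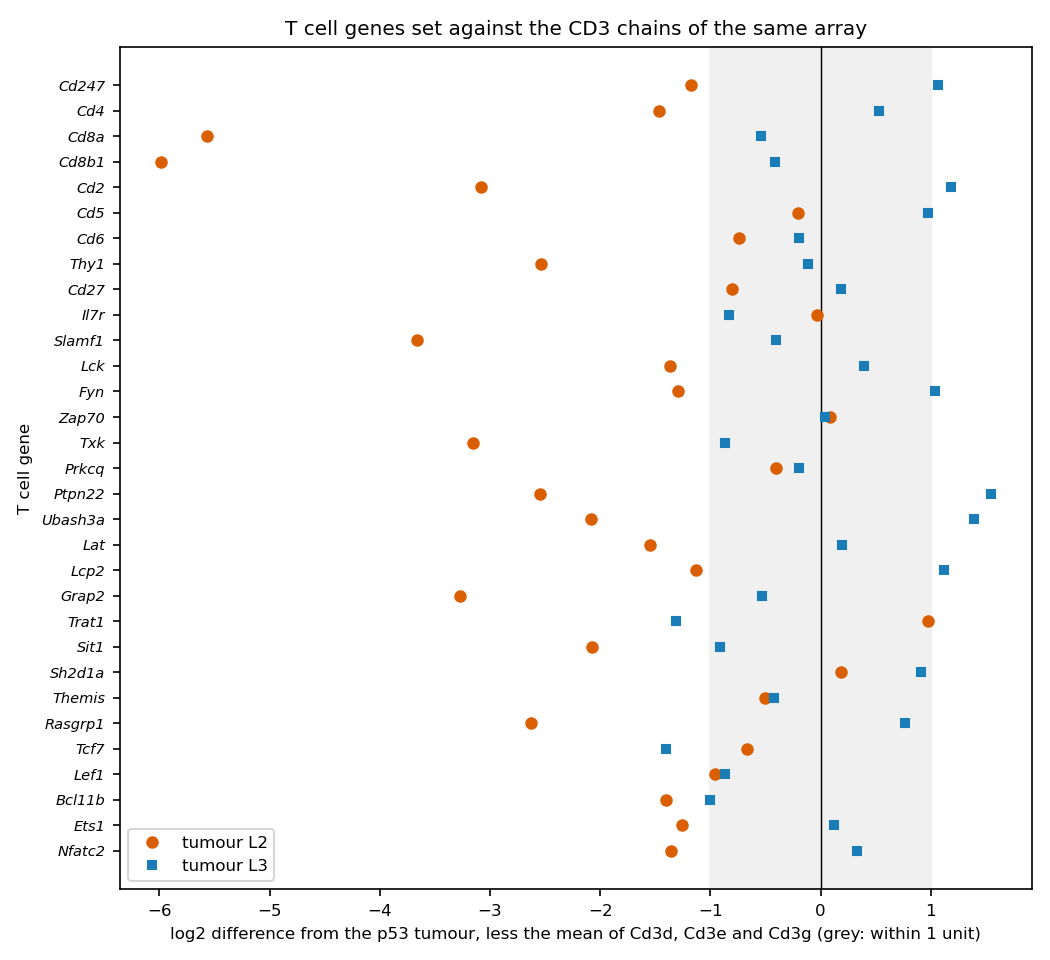
Log2 difference from the p53 tumour less the mean of Cd3d, Cd3e and Cd3g on the same array (x axis) for the other 31 T cell genes (y axis), with circles for tumour L2, squares for tumour L3 and grey for the span within 1 log2 unit. The squares cluster in the grey span (23 of 31), while 20 of the 31 circles lie to the left of it, furthest for Cd8b1 and Cd8a.

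Where a member had another probe, the direction was mostly the same. Of 15 other probes above background in tumour L2 or the p53 tumour, 14 had the direction of the probe shown, Ubash3a being the exception, and of 16 for tumour L3, 15 did. The exception there was a Cd247 probe for another transcript, above background in tumour L3 alone (difference 1.26). The second Cd3d probe gave 2.41 and -1.58 and the second Zap70 probe 2.47 and -1.24, close to those shown.

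Other genes of the receptor pathway were taken from a list of 30, of which 29 were tested and limma called 0 (1 had an unadjusted p under 0.05, lower, where 2.58% of all genes did). In tumour L2, 4 (13.8%) were at least 2-fold higher than in the p53 tumour and 5 (17.2%) lower, near the 11.7% and 11.5% of all genes. In tumour L3 none was higher (15.2% of all genes) and 10 (34.5%) were lower (11.5% of all genes), with medians of -0.14 and -0.48. Their medians lay closer to 0 than those of the 34 members, and the difference between the lists was not tested. The list holds genes used in many blood cells. Among its largest differences between the LSD1 tumours were those of genes of T cells: Skap1, an adaptor for integrin activation (5.95, 28.8 and 1.53), Tespa1, a thymocyte signalling protein (1.75, 2.96 and 0.214), and Sla2, an adaptor that dampens signalling (0.434, 1.07 and 0.220). Each of these was highest in tumour L2 and lowest in tumour L3, as CD3 was.

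Regulators of T cell subsets were more mixed. Of 20 genes 19 were tested and limma called 0 (2 had an unadjusted p under 0.05, both lower, where 2.58% of all genes did). In tumour L2, 6 (31.6%) were at least 2-fold higher, against 11.7% of all genes, and 6 (31.6%) lower, against 11.5%. In tumour L3 none was higher, against 15.2%, and 10 (52.6%) were lower, against 11.5%. Zbtb16, the factor PLZF of innate-like T cells, stood at 0.228 in the p53 tumour and 20.0 in tumour L2 and was not well above background in tumour L3, which puts tumour L2 87.6-fold above the former and at least 242-fold above the latter. Gata3, a factor of T cell development and of type 2 helper cells, stood at 1.88, 24.0 and 0.330. Satb1, a genome organiser of thymocytes, stood at 4.56, 7.03 and 0.484, and Ikzf2, encoding Helios, at 0.430, 1.51 and 0.131. Of 7 genes of immature thymocytes 3 were tested, and Rag1, Rag2, Ptcra and Arpp21 were not well above background on any array. Among these 3 limma called 0 (2 had an unadjusted p under 0.05, both lower, where 2.58% of all genes did). Dntt, the polymerase of antigen receptor joining, was lower in both LSD1 tumours at 0.988, 0.138 and 0.247, as was Cd1d1 at 6.95, 1.65 and 0.817. Rmnd5a stood at 0.546, 0.877 and 0.583.

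Markers of other cells also differed between the tumours, and their part in the results was not tested. For each list below the summed signal is given, in which bright probes weigh most, and all of its tested genes were above background in the p53 tumour. In tumours L2 and L3, 12 and 11 of the 12 B cell genes were, 9 and 10 of the 11 NK genes and 8 and 8 of the 10 dendritic cell genes, and every gene of the other lists. limma called 0 genes in each. At an unadjusted p under 0.05, limma gave 3 B cell, 3 NK and 2 dendritic cell genes, all lower in LSD1 × p53+/−, against 2.58% of all genes. The same threshold gave 3 neutrophil genes and 1 proliferation gene, each higher, and 0 macrophage or erythroid genes. In either direction 568 of all 15240 genes passed it. The 34 T cell genes summed to 184 in the p53 tumour, 389 in tumour L2 and 87.8 in tumour L3. The 12 B cell genes summed to 343, 53.4 and 179. All 12 were at least 2-fold lower in tumour L2 and 7 in tumour L3 (11.5% of all genes in each). Ms4a1, encoding CD20, stood at 52.3, 9.56 and 47.1, and Fcmr, the IgM receptor, at 32.4, 2.70 and 10.9. The follicular genes Cr2 (39.5, 2.03 and 0.242) and Fcer2a (7.59 and 1.94, and not well above background in tumour L3) were lowest in tumour L3. The 11 NK and cytotoxic genes summed to 74.3, 42.8 and 55.3. Of these, 7 were at least 2-fold lower in tumour L2 and 5 in tumour L3 (11.5% of all genes in each). Gzmb, granzyme B, was 7.01-fold higher in tumour L3. Nkg7 (9.25, 1.35 and 9.37) and Klrk1, encoding NKG2D (1.94, 0.219 and 1.09), which CD8 T cells also use, were lowest in tumour L2. Gzma, granzyme A, stood at 20.5, 20.6 and 4.40.

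Dendritic cell genes, 10 of 11 tested, summed to 200.1, 153 and 149. Of these 10, 6 were at least 2-fold lower in tumour L2 and 3 in tumour L3 (11.5% of all genes in each). None was 2-fold higher in tumour L2 (11.7% of all genes) and 1 was in tumour L3 (15.2%). Clec9a, of the subset that carries CD8 alpha in spleen, stood at 1.90, 0.176 and 0.539. Xcr1 of the same subset was above background in none but the p53 tumour. It is counted as 2-fold lower in tumour L2, but its bound there is at least 1.48-fold. Itgae (0.496, 0.195 and 0.431) and Zbtb46 (0.230, 0.201 and 0.498) were lowest in tumour L2. The 10 erythroid genes summed to 162, 116 and 406. All 10 were at least 2-fold higher in tumour L3 (15.2% of all genes), where T cell genes were lowest. Klf1 (2.51, 2.24 and 10.3), Gata1 (10.1, 7.98 and 35.2), Epor (8.52, 5.79 and 26.0) and Trim10 (6.37, 3.68 and 17.2) led that list. The 10 proliferation genes summed to 103, 160 and 311. All 10 were at least 2-fold higher in tumour L3 (15.2% of all genes) and 4 were in tumour L2 (11.7%). They included Mki67 (39.5, 48.5 and 113), Ccnb1 (4.07, 5.80 and 18.4), Top2a (7.84, 14.2 and 28.3) and Pcna (30.4, 44.4 and 84.7), and 2 of the 10, Mki67 and Ccnb1, were at least 2-fold lower in tumour L2 than in tumour L3 (14.0% of all genes).

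The 9 neutrophil genes summed to 146, 296 and 274, with 6 at least 2-fold higher in both LSD1 tumours (3.48% of all genes). Ctsg (0.959, 3.58 and 5.08), Prtn3 (0.181, 0.480 and 0.709) and Ltf (2.34, 8.15 and 5.77) were among them, while Cxcr2 (0.781, 0.343 and 0.131) was lower in both. The 11 macrophage genes summed to 249, 213 and 212, near each other, although Marco (61.5, 62.7 and 8.28) and Cd163 (1.89, 2.20 and 0.730) were lowest in tumour L3 and Adgre1 (9.46, 3.11 and 8.91) and Spic (16.5, 10.2 and 28.6) in tumour L2. Unlike these lists, the T cell genes stood on opposite sides of the p53 tumour with medians of 0.82 and -1.36. The erythroid list was the other one whose medians differed in sign, at -0.44 and 1.63, the reverse direction. Gene by gene, the lists nearest to the members also held the pattern of 2-fold higher in tumour L2 and 2-fold lower in tumour L3. It was found in 3 of 19 T cell subset regulators (15.8%) and 2 of 29 other receptor pathway genes (6.90%), against 0.886% of all genes. These differences between lists were not tested.

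**Figure D5:**
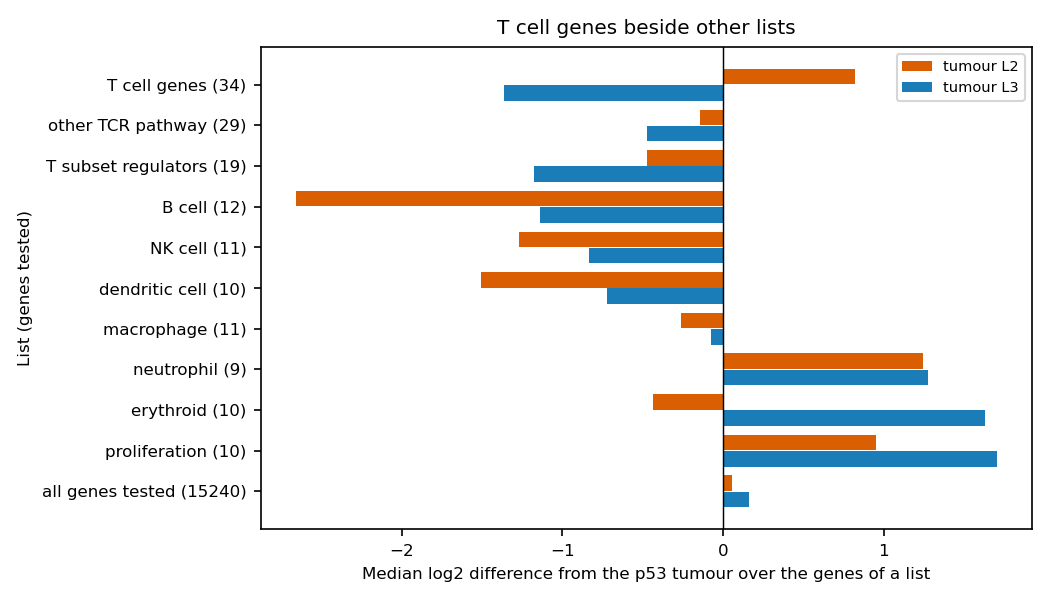
Median log2 difference from the p53 tumour (x axis) over the tested genes of each list (y axis, number of genes in brackets) in tumour L2 (orange) and tumour L3 (blue), with 1 array each and no error. T cell genes (0.82 and -1.36) and erythroid genes (-0.44 and 1.63) are the lists whose bars point in opposite directions.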

How the data were processed

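The 3 scans had been read by the authors with Agilent Feature Extraction 11.5.1.1, per the submitters' processing notes. The deposited processed signal is an intensity on a linear scale, after background subtraction and detrending per the file headers, and was divided by its array's 75th percentile and taken as log2. Flagged outlier spots were left out and repeat spots averaged. Probes were named through RefSeq transcripts of GRCm38.p6 (25126 of 47837 identifiers matched), and a gene is its probe with the highest mean. limma 3.58.1 in R 4.3.3 (lmFit, eBayes, Benjamini-Hochberg) compared the genotypes over all 15240 genes, after being tested on simulated data. Counts by size needed at least 2-fold, with the brighter side well above background. The dimmer side could lie below background, and a counted gene's bound can then be under 2-fold. Named with values were all members and, per other list, up to 4 genes furthest apart between the LSD1 tumours. A gene that this rule names is not reported here. Members and lists were chosen with earlier results of these data known. The design planned normexp on the mean signal, and the files' median signal was used instead. The spot flags, 0 or 1, were deposited with the other values per the file headers. The authors' value table holds the same intensities times 1 factor per array, and what set those factors is not given in the sources used here. Figures were drawn with matplotlib 3.10.9.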

Additional observations from a re-analysis of the deposited data

How the results depend on the processing

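The alternatives were normexp (offset 50), quantile normalization, the authors' value table and no filter on dim probes. The others were only genes above background on all arrays, and the median over the levels of a gene's probes on each array. Under these 6 the members at least 2-fold higher in tumour L2 than in the p53 tumour numbered 13 or 14 (7.32% to 11.3% of all genes), those lower in tumour L3 between 21 and 25 (5.75% with normexp to 18.4% in the authors' value table), those higher in tumour L2 than in tumour L3 between 24 and 26 (6.27% to 13.5%), and those lower in both 4 or 5 (2.59% to 8.31%). Members near the 2-fold mark crossed it: Lef1 in tumour L2 after quantile normalization (0.97), Txk in tumour L2 (-0.96) and Nfatc2 in tumour L3 (-0.99) with normexp, Lck in tumour L3 by the median over probes (-0.996), and, outwards, Cd2 in tumour L2 (-1.26) and Cd4 in tumour L3 (-1.09) after quantile normalization. limma called 0 genes under each of them. The authors' value table shifts the median over all genes, in tumour L2 from 0.05 to -0.16 and in tumour L3 from 0.16 to -0.20. Relative to those medians the members' medians were 0.77 and -1.52 under both scalings. They had to be equal, because the scalings differ by 1 factor per array. Leaving out an LSD1 tumour gave between 5 and 24 members lower in what remained and a median genotype difference between -1.36 and 0.82. With slide as a block, which leaves tumour L3 against the p53 tumour, 24 members were lower. limma's test could not be fitted in these settings, which leave no residual degree of freedom. Genotype differences close to 0 changed sign: Cd3e after quantile normalization (-0.0277), in the authors' value table Cd3e (-0.0681), Cd27 (-0.25), Fyn (-0.0651), Prkcq (-0.24), Ubash3a (-0.29) and Trat1 (-0.11), Cd247 (-0.18) and Ubash3a (-0.64) with the median over probes, and Themis with normexp (0.17) and quantile normalization (0.0036). The cause was not tested. No paired analysis was possible because the groups share no replicate number. Dim probes near background, such as those of Trat1, Themis and Cd27, are limited by signal over background.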
